A study of Mus musculus with 6 samples.

Results

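The Serpina3 genes of the serpin inhibitor family and 2 genes of secreted acute-phase proteins, Chil1 and Saa3, were examined. The samples were cultured mouse cortical astrocytes with a knockout of Neo1, which encodes the receptor neogenin, and control cultures. The 8 genes were Serpina3n, Serpina3m, Serpina3g, Serpina3i, Serpina3f, Serpina3h, Chil1 and Saa3, found by symbol among the 54532 genes of the deposited count table. They were selected on earlier results for the same comparison of knockout with control cultures, so their differences between the groups are given as a description and without a test. Of the 8 genes, 7 passed the filter on low counts and Serpina3m did not. Knockout cultures (3 libraries) came from pups labelled GFAP-Cre::NEOf/f, in which a Cre driven by the GFAP promoter recombines a floxed Neo1 gene. Control cultures (3 libraries) came from littermates whose genotype is given only as control, with the library names Neoff1 to Neoff3. The age of the pups and any treatment of the cultures are not stated, and Cre from this promoter acts only in cells that use or have used it, so other cells in a culture may keep the gene.

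Serpins are inhibitors that trap a protease by a bait loop near their C terminus, and mouse carries a tandem array of genes related to human SERPINA3 (alpha-1-antichymotrypsin), a liver acute-phase protein. Serpina3n, a secreted inhibitor of granzyme B and neutrophil elastase, is a widely used marker of reactive astrocytes. Chil1 encodes the counterpart of human YKL-40, a secreted chitin-binding protein without chitinase activity that reactive astrocytes release. Saa3 encodes the serum amyloid A protein that mouse tissues outside the liver make under inflammation. Acute-phase genes are generally switched on by interleukin-6 through STAT3, by interleukin-1 and TNF through NF-kB, and by C/EBP factors.

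The sequences upstream of the genes are shown first because the array arose by duplication and the copies differ in level. RefSeq starts were available for 6 of the 8 genes, all except Serpina3m and Serpina3h. Each sequence below is the 250 bases before the RefSeq start on GRCm38.p6, 5′ to 3′, and for Saa3 the first 225 of them, since GENCODE places that start 24 bases further upstream. Serpina3c, a neighbour that is not among the 8, is shown because its window was the most like that of Serpina3n; it was chosen after its values were seen. The positions were chr12:104406458-104406707 (+ strand) for Serpina3n, chr12:104153873-104154122 (- strand) for Serpina3c, chr12:104214294-104214543 (+ strand) for Serpina3f, chr12:104235897-104236146 (+ strand) for Serpina3g, chr12:104262872-104263121 (+ strand) for Serpina3i, chr1:134181906-134182155 (+ strand) for Chil1 and chr7:46715702-46715926 (- strand) for Saa3. Capitals mark matches to the STAT pattern TTCNNNGAA, the C/EBP pattern TTGCNNAA or the NF-kB consensus on either strand. No 2 of the matches shown overlap.
Serpina3n: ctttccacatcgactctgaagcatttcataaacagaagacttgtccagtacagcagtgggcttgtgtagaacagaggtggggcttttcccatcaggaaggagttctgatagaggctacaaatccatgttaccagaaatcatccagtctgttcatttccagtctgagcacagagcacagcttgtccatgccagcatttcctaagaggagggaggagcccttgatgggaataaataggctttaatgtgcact
Serpina3c: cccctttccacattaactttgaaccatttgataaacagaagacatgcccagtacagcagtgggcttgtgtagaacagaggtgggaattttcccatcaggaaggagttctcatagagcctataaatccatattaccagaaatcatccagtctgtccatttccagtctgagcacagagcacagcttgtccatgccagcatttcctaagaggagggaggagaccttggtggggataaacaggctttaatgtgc
Serpina3f: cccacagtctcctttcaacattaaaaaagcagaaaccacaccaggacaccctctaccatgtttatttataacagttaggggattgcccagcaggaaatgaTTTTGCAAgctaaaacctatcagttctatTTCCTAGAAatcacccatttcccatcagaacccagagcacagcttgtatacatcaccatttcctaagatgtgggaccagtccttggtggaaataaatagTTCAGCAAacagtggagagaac
Serpina3g: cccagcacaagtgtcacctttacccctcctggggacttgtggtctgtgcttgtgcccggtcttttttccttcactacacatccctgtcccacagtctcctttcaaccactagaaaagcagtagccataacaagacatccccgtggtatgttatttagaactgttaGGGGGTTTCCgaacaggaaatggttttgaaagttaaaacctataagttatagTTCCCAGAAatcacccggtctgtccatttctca
Serpina3i: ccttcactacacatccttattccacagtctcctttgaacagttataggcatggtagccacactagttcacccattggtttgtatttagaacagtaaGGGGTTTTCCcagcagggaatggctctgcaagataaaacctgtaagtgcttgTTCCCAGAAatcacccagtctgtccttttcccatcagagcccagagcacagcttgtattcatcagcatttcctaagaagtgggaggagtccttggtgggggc
Chil1: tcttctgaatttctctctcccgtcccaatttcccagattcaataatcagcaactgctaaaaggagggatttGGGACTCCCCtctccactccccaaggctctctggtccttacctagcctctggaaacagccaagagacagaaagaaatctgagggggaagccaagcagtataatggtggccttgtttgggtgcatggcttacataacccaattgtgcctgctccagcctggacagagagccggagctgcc
Saa3: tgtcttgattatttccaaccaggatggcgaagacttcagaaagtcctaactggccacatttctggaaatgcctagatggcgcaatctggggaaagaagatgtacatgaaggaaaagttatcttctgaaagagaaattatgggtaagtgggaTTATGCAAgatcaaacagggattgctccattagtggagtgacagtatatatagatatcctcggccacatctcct

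The STAT pattern occurred in the windows of Serpina3f (TTCCTAGAA, 121 to 113 bases before the start), Serpina3i (TTCCCAGAA, 102 to 94) and Serpina3g (TTCCCAGAA, 33 to 25), and in 7.02% of the 32851 promoter windows of the same length. The RefSeq start of Serpina3g lies 98 bases upstream of the GENCODE start, which shifts its window against the others. NF-kB consensus matches stood in the windows of Serpina3g, Serpina3i and Chil1, and in 3.90% of all windows. C/EBP matches stood in those of Serpina3f and Saa3, and in 9.56% of all windows. The windows of Serpina3f, Serpina3g and Serpina3i were 80.45% to 82.61% identical over aligned bases, so matches in them are not independent of one another. The Serpina3n window held none of the 3 patterns, and neither did that of Serpina3c. These are matches of letters only, and no binding was measured. The windows of Serpina3n and Serpina3c were identical at 229 of 247 aligned bases (92.7%), against 173 of 222 (77.9%) for Serpina3n and Serpina3i and 180 of 219 (82.2%) for Serpina3f and Serpina3i.

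Libraries held 60819277 to 106081115 counts. Values below are TMM-normalised CPM (counts scaled to library size), and log2 differences are knockout minus control with their SE. A gene outside the 8 is said to have risen or fallen where its adjusted p was under 0.05 by edgeR's quasi-likelihood test over 18530 genes, of which 19.6% were called higher and 18.7% lower (3627 and 3466 genes; 2921 and 4499 when libraries were scaled by total counts alone). Neo1, the targeted gene, had 189, 189 and 198 CPM in the control libraries and 100.8, 106.0 and 104.6 CPM in the knockout libraries, a log2 difference of -0.89 (SE 0.05). The labels name no pup, litter or culture behind a library, so the p-values speak only to differences among these libraries, part of which may be technical. Markers of several cell types differed between the groups, with calls by edgeR given in parentheses. Summed over 12 astrocyte markers, levels ran from 3034 to 3099 CPM in control and from 2747 to 2875 CPM in knockout libraries (2 called higher and 7 lower). The 16 microglia and macrophage markers summed to 180.2 to 187.5 and 126 to 129.5 CPM (1 higher, 13 lower), and the 12 fibroblast and meningeal markers to 7912 to 8407 and 11080 to 11850 CPM (9 higher, 0 lower). Most of the fibroblast and meningeal sum came from the matrix genes Fn1 and Col1a1, named after their values were seen. Their means were 4750 and 1950 CPM in control and 6121 and 2976 CPM in knockout libraries. For 9 endothelial markers the sums were 108.3 to 114.5 and 161.2 to 165.7 CPM (4 higher, 1 lower), and for 10 choroid plexus and ependymal markers 121.3 to 125 and 113 to 119.8 CPM (2 higher, 5 lower, and 3 lower without control replicate 3). Ttr, the transthyretin gene that choroid plexus makes in quantity, fell from 19.4 ± 0.404 to 0.0126 ± 0.0138 CPM. Of the same list, Foxj1 fell from 60.75 ± 1.393 to 33.15 ± 3.934 CPM, whereas Enpp2 rose from 18.47 ± 0.5083 to 59.01 ± 2.57 CPM. The sum of that list thus joins changes in both directions. The defining astrocyte marker Gfap fell from 946 ± 20.8 to 431 ± 3.85 CPM, whereas the glutamate transporter gene Slc1a2 rose from 132.9 ± 8.41 to 371 ± 16.6 CPM. No marker of these lists was at 0 in all 6 libraries. Kl and Clic6 of the choroid plexus list and Aif1 and Cx3cr1 of the microglia list were named after their values were seen. They passed the filter on low counts through the control libraries, so a lower value was largely built into their selection. Their lower calls are not read as a result. Ttr passed through the control libraries as well, at a far higher level. The part of cell makeup in the differences below was not tested, and in bulk samples more cells of a type and more RNA per cell cannot be told apart.

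The 3 abundant genes were Serpina3n, Chil1 and Saa3, and all were higher in the knockout cultures. Serpina3n (ENSMUSG00000021091, GRCm38 chromosome 12, 104406729 to 104414329, plus strand) had 168.5, 168.2 and 174.1 CPM in control replicates 1, 2 and 3 and 377, 395 and 383 CPM in knockout replicates 1, 2 and 3. Every knockout library lay above every control library, and the spread within a group was narrow (coefficient of variation 1.94% in control and 2.40% in knockout). The log2 difference of Serpina3n was 1.18 (SE 0.04), a fold of 2.26. Chil1 (ENSMUSG00000064246, chromosome 1, 134182176 to 134190181, plus strand) had 157.5, 156.3 and 145.8 CPM in control and 528, 522 and 527 CPM in knockout libraries. Its groups were also apart, the knockout libraries differed by a coefficient of variation of 0.624%, and its log2 difference was 1.78 (SE 0.04), a fold of 3.43. Saa3 (ENSMUSG00000040026, chromosome 7, 46711998 to 46715700, minus strand) had 124.3, 119.6 and 112.7 CPM in control and 319, 296 and 305 CPM in knockout libraries. That is a log2 difference of 1.37 (SE 0.05), a fold of 2.58, again with no overlap.

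**Figure D1:**
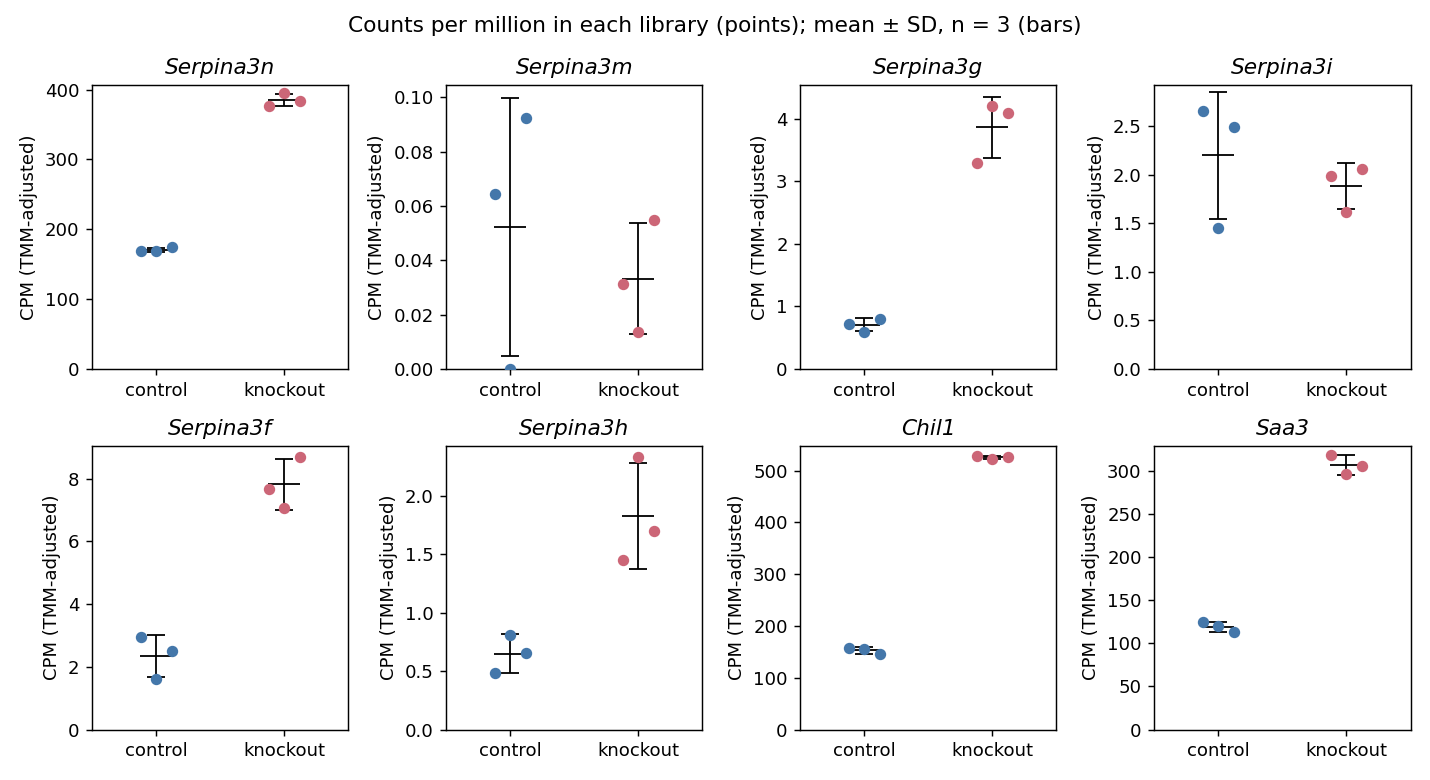
CPM (linear axes from 0, a different scale for each gene) of the 8 genes in the 3 control and 3 knockout libraries; points are libraries and bars the mean ± SD (n = 3). All 3 knockout libraries lie above all 3 control libraries for 6 genes, the groups overlap for Serpina3i, and Serpina3m stays under 0.1 CPM.

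The smaller Serpina3f, Serpina3g, Serpina3h and Serpina3i genes lie in a row upstream of Serpina3n on the plus strand, and their values differed. Serpina3g (ENSMUSG00000041481, chromosome 12, 104236245 to 104241939) encodes an intracellular serpin, Spi2A, that inhibits cysteine cathepsins. It had 0.724, 0.595 and 0.803 CPM in control libraries and 3.30, 4.20 and 4.09 CPM in knockout libraries, with a log2 difference of 2.44 (SE 0.23), the largest of the 7 genes that passed the filter. Serpina3f (ENSMUSG00000066363, 104214544 to 104221129) had 2.94, 1.62 and 2.51 CPM in control and 7.68, 7.08 and 8.70 CPM in knockout libraries, a log2 difference of 1.73 (SE 0.19). Both genes were thus higher in every knockout library than in any control library. Serpina3h (ENSMUSG00000041449, 104247905 to 104253669), annotated as a transcribed unprocessed pseudogene, had 0.482, 0.812 and 0.656 CPM in control and 1.46, 2.34 and 1.70 CPM in knockout libraries, with a log2 difference of 1.49 (SE 0.31) and no overlap. Serpina3i (ENSMUSG00000079014, 104263122 to 104269372) was the exception among the 7. It had 2.65, 1.45 and 2.49 CPM in control and 1.99, 1.61 and 2.05 CPM in knockout libraries, so the groups overlapped, and its log2 difference was -0.22 (SE 0.25). In all, every knockout library lay above every control library for 6 of the 7 genes that passed the filter, beside 24.7% of all genes tested. The 8 genes were selected on this contrast, so nothing is read from that count.

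Serpina3m (ENSMUSG00000079012, chromosome 12, 104338486 to 104394257) was close to undetected. It had 4, 0 and 10 counts in control libraries and 3, 1 and 4 counts in knockout libraries, or 14 against 8 in all, and no fold is given at this depth. The first exon of one of its transcripts shares 60 bases, 3.49% of its exon length, with Serpina3k on the same strand. A count of 0 allows up to 3 counts, which is 0.0277 to 0.0482 CPM in these libraries, for counting error only. Serpina3a, Serpina3b, Serpina3j, Serpina3k and the pseudogene Serpina3d-ps had no count in any library. Serpina3c had 0 counts in 5 libraries and 5 counts in knockout replicate 3, although its upstream window was 92.7% identical to that of Serpina3n.

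**Figure D2:**
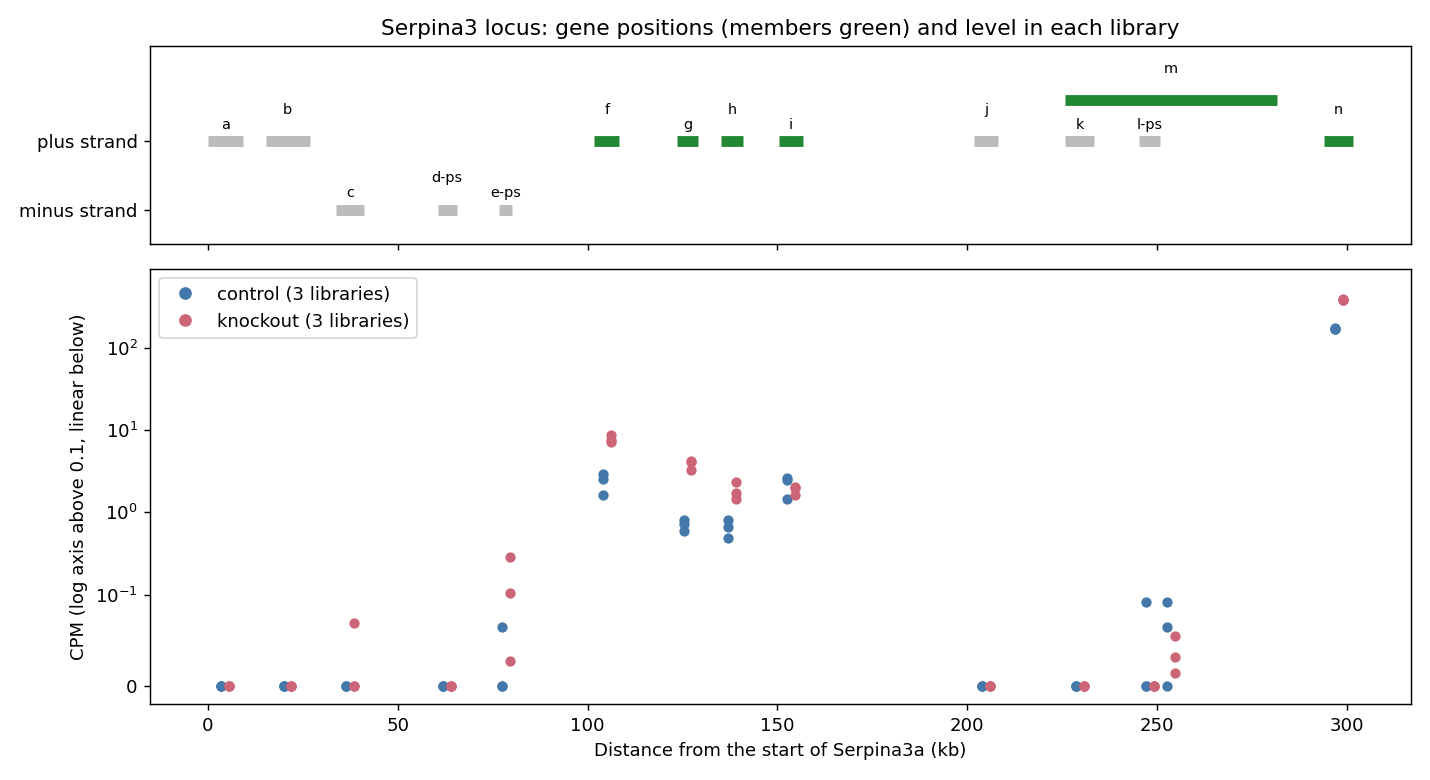
The Serpina3 locus, drawn as distance in kb from the start of Serpina3a, with gene positions by strand above (the 6 Serpina3 genes described here in green, Serpina3m on a row of its own) and the CPM of each gene in each library below (log axis above 0.1, linear below). Expression is seen in the block Serpina3f to Serpina3i and at Serpina3n, and the other genes lie at or near 0.

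The locus spanned 301.6 kb from the start of Serpina3a to the end of Serpina3n and held 14 annotated genes, 5 of them at 0 in all libraries. Serpina3n took 96.6% ± 0.711 of the locus counts in control and 96.1% ± 0.249 in knockout libraries (SD, n = 3). The share of Serpina3g was 0.400% ± 0.0511 in control and 0.962% ± 0.104 in knockout libraries, and that of Serpina3f was 1.34% ± 0.371 and 1.95% ± 0.227. For Serpina3i the share was 1.24% ± 0.356 and 0.471% ± 0.0682, and the 3 knockout libraries (0.508%, 0.393% and 0.513%) lay below the 3 control libraries (1.51%, 0.840% and 1.38%). Summed over the 6 Serpina3 genes, levels were 175.4, 172.7 and 180.6 CPM in control and 392, 411 and 400 CPM in knockout libraries. The sum of Serpina3f, Serpina3g, Serpina3h and Serpina3i alone was 6.80, 4.48 and 6.46 CPM in control and 14.4, 15.2 and 16.5 CPM in knockout libraries.

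These 4 genes share long stretches of sequence, which bears on how reads are assigned to each. Of the longest Serpina3h transcript, 54.3% aligned to Serpina3g or Serpina3i at 95% identity or more over at least 100 bases, and 89.8% to Serpina3f, Serpina3g or Serpina3i at 90% or more. The shares at these 2 limits, to any other gene, were 27.6% and 54.9% for Serpina3f, 23.9% and 56.4% for Serpina3i, and 22.8% and 56.7% for Serpina3g. How reads mapping to several places were treated, and whether strand was used, is not stated, so the values of Serpina3f, Serpina3g, Serpina3h and Serpina3i are uncertain as to which copy the reads came from. For Serpina3n, Serpina3m and Chil1 no whole alignment reached a mean identity of 90%. Shorter and closer stretches inside a longer alignment were not sought. Serpina3m aligned to Serpina3k at 89.9% over 1670 bases and Serpina3n to Serpina3h at 85.8% over 1227 bases, so some doubt over the copy remains for these genes too. In Saa3, 6.14% of the longest transcript aligned at 95% or more to transcripts of at least 44 other genes, in a stretch of 135 bases. The search kept a limited number of matching transcripts, so more genes may match, and likeness of Saa3 to Saa1 or Saa2 was not assessed.

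Compared per length, as CPM divided by the kilobases of annotated exons (FPKM), the order of the abundant genes depended on which gene length was used. With the union of annotated exons, in control libraries Serpina3n stood at 82.5 ± 1.60, Chil1 at 54.7 ± 2.29 and Saa3 at 45.6 ± 2.24 FPKM (SD, n = 3), with no overlap between neighbours. In knockout libraries Chil1 (188 ± 1.17 FPKM, 186.2 to 188.4) and Serpina3n (187 ± 4.48 FPKM, 182.7 to 191.5) overlapped, and Saa3 stood at 117.6 ± 4.38 FPKM. The ratio of Chil1 to Serpina3n on this scale was 0.688, 0.684 and 0.617 in control and 1.03, 0.972 and 1.01 in knockout libraries. Per kilobase of the longest transcript, Chil1 (83.3 ± 3.49 FPKM, 79.31 to 85.66) and Serpina3n (82.5 ± 1.60 FPKM, 81.49 to 84.33) overlapped in control libraries instead, above Saa3 (54.0 ± 2.65 FPKM). In knockout libraries Chil1 then stood at 286 ± 1.78, Serpina3n at 187 ± 4.48 and Saa3 at 139.3 ± 5.19 FPKM, with no overlap. The ratio of Chil1 to Serpina3n was 1.01 ± 0.061 and 1.53 ± 0.0459 on that length, so its value depends on the length while its direction between the groups does not. By level per kilobase of the exon union, Serpina3n ranked 531 of 15071 tested protein-coding genes in control and 202 in knockout libraries, and Chil1 842 and 201. Retained introns lengthen the exon total of Saa3 to 2606 bases against 555 for its principal transcript. Per kilobase of principal transcript, an alternative chosen after seeing the data, Saa3 came first in both groups (214 ± 10.5 FPKM in control and 552 ± 20.6 in knockout libraries), ahead of Chil1 (90.8 ± 3.80 and 312 ± 1.95) and Serpina3n (82.5 ± 1.60 and 187 ± 4.48).

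The low-level Serpina3 genes also changed places. In control libraries Serpina3f (1.03 ± 0.294 FPKM) and Serpina3i (0.989 ± 0.294 FPKM) overlapped, above Serpina3h (0.453 ± 0.115 FPKM) and Serpina3g (0.336 ± 0.05 FPKM), which overlapped too. In knockout libraries Serpina3f (3.41 ± 0.358 FPKM) stood above Serpina3g (1.83 ± 0.233 FPKM), Serpina3g overlapped Serpina3h (1.28 ± 0.318 FPKM), and Serpina3i (0.848 ± 0.107 FPKM) was last. Serpina3f and Serpina3i were both lowest in control replicate 2, and their ratio was 1.08, 1.09 and 0.978 across the control libraries against 3.75, 4.26 and 4.12 in the knockout libraries. Serpina3f was thus level with Serpina3i in control cultures and about 4-fold above it in knockout cultures (mean ratio 4.04 ± 0.266, SD, n = 3).

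Other acute-phase proteins were next compared, from a list of 27 genes of which 17 were tested. Of these, 9 rose and 1 fell, beside 19.6% and 18.7% of all genes, and the median log2 difference was 1.18 against -0.002 over all genes. The 9 include Crp, Saa2 and Orm2, which passed the filter on low counts through the knockout libraries, as did Fgb, which was not called. A higher value was thus largely built into their selection. They raise both the count and the median, so neither is read as a result for such low-count genes. C3, the central complement component, went up from 406 ± 3.99 to 1267 ± 50.7 CPM (SD, n = 3; log2 difference 1.64, adjusted p = 4.6e-15, edgeR's quasi-likelihood test). Lcn2, an iron-scavenging lipocalin, rose by 1.44 on the log2 scale and Cp, the copper carrier ceruloplasmin, by 1.44. Steap4, a metalloreductase, rose from 165 ± 2.32 to 320 ± 15.2 CPM. Lbp, which binds lipopolysaccharide, rose from 32.5 ± 1.49 to 73.5 ± 2.12 CPM, and Ptx3, a long pentraxin, only from 1382 ± 40.1 to 1565 ± 20.8 CPM. Itih3, a hyaluronan-binding protein gene, fell from 11.02 ± 0.371 to 7.32 ± 0.472 CPM. Lbp, Ptx3, Itih3, Orm2, Fgb and the low-count genes that follow were named after their values were seen. The liver-type serum amyloid genes were near the limit of detection: Saa1 had 0 counts in every control library and 31, 8 and 6 in the knockout libraries. With the knockout counts taken as exact, that is 14.9-fold above a floor of 3 counts over the whole control group. Without knockout replicate 1, which holds 31 of the 45 counts, it was 7.64-fold, so the size is uncertain. Saa2 had 3, 4 and 10 counts in control and 66, 33 and 33 in knockout libraries, and Crp, the C-reactive protein gene, had 2, 0 and 2 against 30, 32 and 37.

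**Figure D3:**
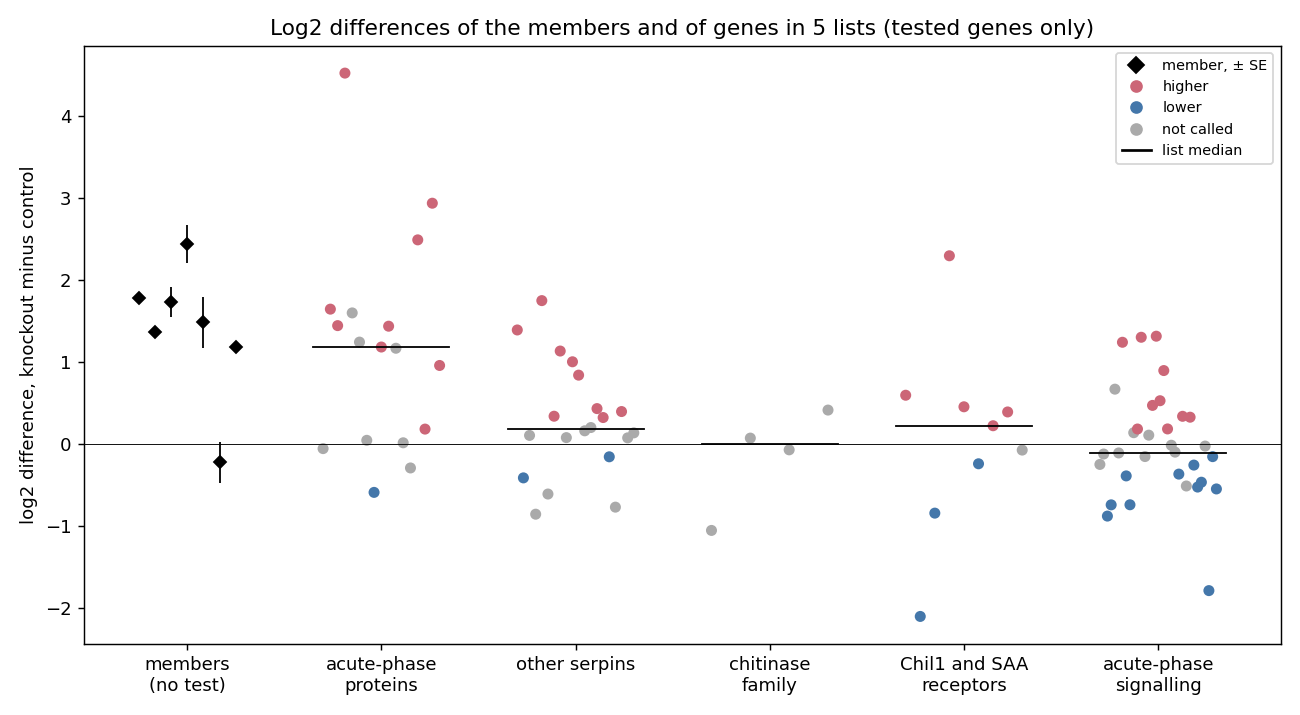
Log2 differences (knockout minus control) of the 7 genes that passed the filter (black diamonds, ± SE, no test) and of the tested genes in 5 lists, coloured by whether edgeR called them higher, lower or neither, with each list's median as a line. Acute-phase proteins have a median of 1.18, other serpins 0.18, and acute-phase signalling genes -0.11, with calls in both directions. Some low-count acute-phase proteins passed the filter through the knockout libraries, which raises the median of that list.

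Serpins of other clades were counted next. Of 25 genes 20 were tested, 9 rose and 2 fell, beside 19.6% and 18.7% of all genes (median log2 difference 0.18). Serpinb2, plasminogen activator inhibitor 2, rose from 119.1 ± 5.96 to 399.8 ± 10.03 CPM (log2 difference 1.75, adjusted p = 1.1e-14, edgeR's quasi-likelihood test). Serpinb6b and Serpinb9b, intracellular clade B serpins, rose by 1.13 and 0.84 on the log2 scale. The 2 that fell, named after their values were seen, were Serpinf1, pigment epithelium-derived factor, from 819 ± 31.2 to 734 ± 10.6 CPM, and Serpinb1a from 6.12 ± 0.664 to 4.60 ± 0.398 CPM; Serpinb1a was not called without control replicate 3 (adjusted p = 0.13, edgeR), knockout replicate 1 (0.053) or knockout replicate 2 (0.064). Among 14 other clade A serpins, relatives of the Serpina3 genes that include the alpha-1-antitrypsin genes, none passed the filter and 7 were at 0 in all libraries.

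Relatives of Chil1 in the chitinase family were few in these cultures. None of the 4 tested relatives of 9 listed was called by edgeR (0 at an unadjusted p under 0.05 as well), beside 19.6% called higher and 18.7% lower of all genes. With 4 genes at those shares, nothing is read from the absence of calls. Of the 4, Chia1 was called lower without knockout replicate 2. Chil3, Chil4, Chil5 and Chil6 were at 0 in every library. Chid1, a chitinase domain gene, had 45.5 ± 1.96 and 47.8 ± 0.870 CPM, and Ctbs, which degrades chitobiose, 12.3 ± 0.106 and 11.7 ± 0.721 CPM; Chia1, Chid1 and Ctbs were named after their values were seen.

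Receptors reported for the secreted products moved in both directions, 5 higher and 3 lower of 9 tested, beside 19.6% and 18.7% of all genes. Il13ra2, a receptor for interleukin-13 that also binds the Chil1 protein, rose from 0.617 ± 0.159 to 3.06 ± 0.709 CPM (log2 difference 2.29, adjusted p = 3.3e-06, edgeR's quasi-likelihood test). Tmem219, its partner in Chil1 binding, had 6.97 ± 0.515 and 6.60 ± 0.319 CPM and was not called; it was named after its values were seen. The scavenger receptor gene Cd36 rose from 16.8 ± 1.71 to 25.4 ± 0.847 CPM and P2rx7, an ATP-gated channel, from 22.4 ± 0.458 to 30.7 ± 1.97 CPM. Fpr1, a formyl peptide receptor of phagocytes, fell from 9.60 ± 1.31 to 2.22 ± 0.489 CPM. Microglia and macrophage markers mostly fell as well, as given above, and a link was not tested. Of 9 proteases that SERPINA3-type inhibitors are known to bind, only the cathepsin genes Ctsb and Ctsl passed the filter, while Ctsg, Elane and Gzma were at 0 in all libraries. Ctsl rose from 502 ± 12.5 to 584 ± 19.5 CPM, and Ctsb had 1159 ± 14.0 and 1208 ± 50.6 CPM.

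Genes of acute-phase signalling were called in both directions. Of 32 tested, 10 rose and 11 fell, beside 19.6% and 18.7% of all genes, with a median log2 difference of -0.11. Jak2, a kinase of cytokine receptors, rose from 88.7 ± 2.92 to 220.5 ± 9.66 CPM and Il11, a cytokine of the interleukin-6 family, from 24.0 ± 0.501 to 56.6 ± 4.35 CPM. Tnf fell from 151.1 ± 4.96 to 43.7 ± 2.95 CPM (log2 difference -1.79, adjusted p = 8.4e-14, edgeR's quasi-likelihood test), and Clcf1, like Il11 of the interleukin-6 family, from 170.5 ± 3.63 to 101.8 ± 4.64 CPM. The following genes of this list were named after their values were seen. Il6 rose from 88.9 ± 4.58 to 219 ± 27.2 CPM. Socs3, a feedback inhibitor that STAT3 induces, fell from 45.9 ± 2.44 to 33.2 ± 2.30 CPM. Stat3 itself had 292 ± 2.06 and 287 ± 2.57 CPM and was not called. The C/EBP factor gene Cebpd fell from 286 ± 4.84 to 155 ± 36.4 CPM (adjusted p = 0.027, edgeR), but it was not called without any one control library (adjusted p = 0.075, 0.076 and 0.083) or without knockout replicate 1 (0.069). Without knockout replicate 2, its lowest library at 113.4 CPM, the adjusted p of Cebpd was 2.7e-10 by edgeR. Cebpb had 86.8 ± 5.16 and 79.5 ± 18.7 CPM, with knockout replicate 2 at 58.0 CPM below the other 2 knockout libraries (91.5 and 89.1 CPM).

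The genes whose pattern over the 6 libraries lay nearest to a member were found among 12249 protein-coding genes, as the root-mean-square difference of log2 CPM after centring each gene on its mean. Nearest to Serpina3n were Gbp5 (0.0237), Gypc (0.0261), Cd274 (0.0293), Zc3hav1 (0.0365) and Cmpk2 (0.0366 on the log2 scale). Gbp5, a guanylate-binding protein gene, had 199 ± 4.41 CPM in control and 439 ± 16.1 CPM in knockout libraries. Cd274, which encodes the checkpoint ligand PD-L1, had 115.2 ± 2.52 and 253 ± 11.2 CPM. Nearest to Chil1 were Ly6e (0.0313), Col23a1 (0.0523), Oasl1 (0.0631), Clic5 (0.0639) and Rsad2 (0.0697). Ly6e, a membrane-anchored LY6 protein gene, had 84.9 ± 4.56 and 286 ± 1.39 CPM, and Rsad2, the antiviral enzyme viperin, 258 ± 7.11 and 876 ± 43.3 CPM. With 2 groups of 3 libraries this measure mostly reflects the size of the difference between the groups.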

How the data were processed

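Polyadenylated RNA of cultured astrocytes was sequenced in 6 libraries. The authors deposited raw counts per gene, made with HISAT2 2.2.1 and featureCounts 2.0.6 on GRCm38 (mm10), per the submitters' processing notes; their strand setting, rule for multi-mapped reads and annotation release were not found in the sources used here. Columns were matched to samples by library name. Genes were filtered with filterByExpr (minimum count 10, minimum total 15; 18530 kept, 99.96% of counts) and compared by the robust quasi-likelihood test of edgeR 4.0.16, run under R 4.3.3 (TMM scaling, genotype alone, two-sided, Benjamini-Hochberg over all genes tested, threshold 0.05); the test was checked on simulated counts. No 2 libraries of a group agreed within sampling noise (chi-square per gene 5.98 to 21.9). SEs come from the test statistic. Gene positions and exons came from GENCODE M21, and similarity from BLAST 2.17.0. Upstream windows were taken from RefSeq (GRCm38.p6) and aligned globally with Biopython 1.88.

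Named genes were the 8 members, Neo1, up to 4 called genes of each list with the smallest p, and the 5 nearest patterns to Serpina3n and Chil1 (mean log2 CPM of at least 1, prior count 2); others are said to be named after their values were seen. A gene of the lists that this rule names is not reported here. Members and lists were chosen with earlier results of these data known.

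Alternatives were DESeq2 1.42.0 and its size factors, limma-voom (limma 3.58.1), total-count scaling, no filter, a replicate block, each library left out, other gene lengths, summed copies and a 90% identity limit.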

Additional observations from a re-analysis of the deposited data

How the results depend on the processing

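Under 12 other settings of the fit, none of the 84 values for the 7 members changed sign. Scaled by total counts, the log2 differences were 1.11 for Serpina3n, 1.72 for Chil1 and 1.30 for Saa3, and leaving out each library in turn gave 1.16 to 1.19, 1.74 to 1.80 and 1.325 to 1.396. For Serpina3f, Serpina3g and Serpina3h the ranges without one library were 1.518 to 1.897, 2.32 to 2.54 and 1.27 to 1.66, and for Serpina3i -0.45 to -0.08. Summing counts over the 6 Serpina3 genes gave 1.19, beside 1.18 for Serpina3n alone. Over all genes, 3501 were called higher and 3383 lower with a replicate block, 3772 and 3615 by DESeq2, 3600 and 3473 by limma-voom, 2921 and 4499 by total-count scaling, and from 2907 to 3517 and from 2753 to 3431 with one library left out. Same-numbered libraries did not deviate together (correlations of deviations 0.015, 0.019 and -0.008), so the numbers were not taken as pairs, and with the replicate block the log2 differences were 1.18 for Serpina3n and 1.78 for Chil1. Of 780 values for 65 genes outside the members that were followed, 770 kept direction and call, 8 lost the call (all Cebpd or Serpinb1a, Cebpd also without a filter, adjusted p = 0.06 by edgeR) and 2 turned sign: Cebpb to 0.058 without knockout replicate 2 (from -0.239 to 0.058 over the libraries left out) and Ctsb to -0.005 under total-count scaling. Chia1, Crp, Orm2, Fgb, Kl, Clic6, Aif1, Cx3cr1, Fn1 and Col1a1 were not among the genes followed. Changes in their calls, such as that of Chia1 given above, are not in this tally. Lower calls went from 1 to 2 among acute-phase proteins under total-count scaling or without knockout replicate 3, and from 0 to 1 among fibroblast markers under total-count scaling or without knockout replicate 1. The cause was not tested. Depth limits Serpina3m, Serpina3c and Saa1, where libraries hold few counts or none.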

Other observations

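Counts at the margin of detection elsewhere in these families fell as follows. The pseudogene Serpina3e-ps had 0, 0 and 7 counts in control libraries and 10, 21 and 2 in knockout libraries. Orm1, an orosomucoid gene of the liver acute phase, had 0 counts in every control library and 11, 16 and 8 in the knockout libraries, and its neighbour in the family, Orm2, had 1, 1 and 11 against 27, 17 and 24. Saa4, the constitutively made serum amyloid gene, had 0, 4 and 4 counts in control and 3, 18 and 5 in knockout libraries. No fold is given for these counts.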
